A study of Rattus norvegicus with 8 samples.

Results

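Interferons are signalling proteins that cells release when they sense viral nucleic acid or tissue damage, and the genes they switch on fall into groups with separate roles. Transcription factors of the IRF and STAT families carry the signal into the nucleus, and antiviral effectors such as the Mx, Oas and Ifit proteins block viral replication. Interferon gamma in addition raises the machinery that displays peptides on MHC molecules. Class I molecules show peptides cut by the proteasome inside any nucleated cell, whereas class II molecules show peptides from engulfed material and are made mainly by macrophages, dendritic cells and B cells. In an injured kidney, class II can also appear on tubule cells. The genes described here are 37 listed symbols of these pathways, measured in a rat model of kidney stones. Probe sets were found for 35 of the 37 symbols among 15037 named genes, namely 20 interferon-induced genes and 15 genes of the MHC pathway. Herc6 and Nlrc5 were not analysed here. The symbols were chosen for what the genes are known to do, with earlier results of these data known.

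Kidneys of male Sprague-Dawley rats aged 10 weeks were divided into cortex and outer medulla, and total RNA was measured on Clariom S rat arrays, separately by zone. The 4 treatments were control, EG (renal stone induction over 2 weeks with ethylene glycol, a precursor of oxalate, together with alfacalcidol, a vitamin D analogue), phlorizin (an inhibitor of the renal glucose transporters SGLT1 and SGLT2), and EG with phlorizin. The study asked how blocking these glucose transporters relates to the formation of renal stones. Each zone and treatment had 1 array, 8 in all. Dose and route of phlorizin, what the control rats received in its place, and whether an array held RNA of 1 animal or of several are not given in the sources used here. Both arrays of a treatment can come from the same animals. Values are on the log2 scale, so that a difference of 1 is a doubling, and they ranged from 2.28 to 19.7 over the table. With 1 array for each zone and treatment, differences between single arrays carry no p-value. The p-values given for fits over several arrays measure only the spread that each fit leaves between these arrays. For the EG and phlorizin effects, that spread is the change of the EG effect with phlorizin. For the zone effect, it is the change of the zone difference between treatments. Neither is a spread between replicate arrays. In addition, limma, which made these fits, draws the spread of each gene toward a value pooled over all tested probe sets. A p-value therefore does not rest on the spread of that gene alone. The tissue is bulk, so more cells of a type and more RNA per cell cannot be told apart.

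The zones matched their labels. All 4 markers of the first proximal segments, which lie in cortex, were lower in outer medulla, and all 4 markers of the thick ascending limb and outer medulla were higher there (limma 3.58.1, adjusted p under 0.05 for each). The tubule injury gene Havcr1, the check of the stone model, was 7.82 on the cortex control array and 17.05 on the cortex EG array. Array medians lay between 7.39 and 7.58, and the 23 background probes averaged 5.53 to 5.68. Values at or below that background occurred for Ifit1 on all 8 arrays, for RT1-Db1 on 5, for Isg15 on 3 and for Oas2 on 1, and differences that involve them have no exact size. The cortex EG array stood apart in its poly-A spike-in controls, which averaged 6.42 there against 7.67 to 8.23 in the remaining cortex samples and 7.46 to 7.66 in outer medulla. For both member groups, counts and medians that rest on the cortex EG array are therefore given beside outer medulla and beside the phlorizin arm, neither of which uses it. For some single genes and most other lists the phlorizin arm is not given. For Havcr1, Mrc1, Cd68 and Ptprc only cortex values are given, and these rest on that array.

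Promoters are shown for some members of each group, because genes of each pathway that are known to respond to one kind of signal share short motifs. Only members with a motif match were chosen for display. The entries were taken from RefSeq (build GRCr8), which held a promoter for 26 of the 35 members, 13 of each group. Each line gives the 160 bases before the annotated start of the gene, read 5′ to 3′ on the gene's strand. Capitals mark 3 motifs searched on both strands. The first is 2 copies of GAAA with any 2 bases between them, a form of the interferon-stimulated response element (ISRE) bound by IRF and STAT factors. The second is TTCNNNGAA, the GAS element bound by STAT dimers, where N is any base. The third is ATTGG, the core of the class II Y box bound by NF-Y, which reads CCAAT on the other strand. The first 4 genes encode class II chains, the next 3 belong to class I peptide supply, and the last 4 are interferon-induced.
RT1-Ba, chr20:4576897-4577056, plus strand: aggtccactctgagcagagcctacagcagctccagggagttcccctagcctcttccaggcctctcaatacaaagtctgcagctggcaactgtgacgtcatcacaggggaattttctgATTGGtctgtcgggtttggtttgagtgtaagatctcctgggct
RT1-Bb, chr20:4604119-4604278, minus strand: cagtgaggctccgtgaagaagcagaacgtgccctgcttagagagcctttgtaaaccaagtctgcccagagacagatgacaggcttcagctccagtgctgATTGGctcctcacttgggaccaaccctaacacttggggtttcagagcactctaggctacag
RT1-Da, chr20:4515255-4515414, plus strand: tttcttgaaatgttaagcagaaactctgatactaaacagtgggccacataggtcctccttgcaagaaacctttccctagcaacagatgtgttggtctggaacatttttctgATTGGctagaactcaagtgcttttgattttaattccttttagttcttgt
RT1-DMa, chr20:4712336-4712495, minus strand: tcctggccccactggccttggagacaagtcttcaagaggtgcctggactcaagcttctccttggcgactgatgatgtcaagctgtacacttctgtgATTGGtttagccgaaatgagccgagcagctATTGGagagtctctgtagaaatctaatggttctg
Tap1, chr20:4668544-4668703, minus strand: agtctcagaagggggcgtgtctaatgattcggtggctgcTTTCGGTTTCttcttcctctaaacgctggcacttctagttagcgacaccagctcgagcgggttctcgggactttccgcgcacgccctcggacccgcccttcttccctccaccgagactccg
Tapbp, chr20:4967878-4968037, minus strand: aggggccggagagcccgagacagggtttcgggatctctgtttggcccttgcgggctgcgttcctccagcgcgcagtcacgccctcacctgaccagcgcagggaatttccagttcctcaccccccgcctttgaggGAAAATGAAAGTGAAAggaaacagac
Psmb10, chr19:50743293-50743452, minus strand: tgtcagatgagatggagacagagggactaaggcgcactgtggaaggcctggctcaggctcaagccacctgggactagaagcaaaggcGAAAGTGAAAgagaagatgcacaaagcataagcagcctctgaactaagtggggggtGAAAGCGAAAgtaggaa
Gbp2, chr2:234005567-234005726, plus strand: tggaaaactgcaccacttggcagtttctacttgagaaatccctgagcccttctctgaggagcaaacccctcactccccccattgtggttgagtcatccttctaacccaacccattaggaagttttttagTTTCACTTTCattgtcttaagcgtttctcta
Irf1, chr10:38417775-38417934, plus strand: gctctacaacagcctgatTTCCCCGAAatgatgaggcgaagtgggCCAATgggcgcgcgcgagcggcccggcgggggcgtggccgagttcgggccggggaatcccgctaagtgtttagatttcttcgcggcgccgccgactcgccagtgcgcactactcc
Oas1a, chr12:41330306-41330465, plus strand: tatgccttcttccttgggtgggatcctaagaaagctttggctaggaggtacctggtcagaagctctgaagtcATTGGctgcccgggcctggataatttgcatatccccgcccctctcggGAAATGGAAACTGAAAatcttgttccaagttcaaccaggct
Rsad2, chr6:48788121-48788280, minus strand: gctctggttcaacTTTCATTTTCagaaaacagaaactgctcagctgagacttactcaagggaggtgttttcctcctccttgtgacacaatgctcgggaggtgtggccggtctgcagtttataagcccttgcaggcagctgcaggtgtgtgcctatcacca

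Over the 250 bases before the start, the ISRE letters were found in 8 of 13 interferon-induced members (61.5%), in 5 of 7 class I members (71.4%) and in 0 of 6 class II members, against 3.41% of all 33469 promoters in the table. The 5 class I members were B2m, Tap1, Tap2, Tapbp and Psmb10. Matches lay close to the start in Psmb10, which had them from 73 to 64 and from 17 to 8 bases before it, and in Tapbp, where 2 overlapping matches ran from 26 to 11 bases before it. The Y box letters were found in 6 of 6 class II members against 34.0% of all promoters, and in RT1-Ba, RT1-Bb, RT1-Da and RT1-DMa they stood in the sense direction between 64 and 30 bases before the start. The GAS letters were found in Irf1, Irf9, Oas1a and Psmb8, and in 7.67% of all promoters. Psmb9, Mx1 and Cmpk2 had a promoter entry but no match of any of these motifs, and their promoters are not shown. The starts of Tap1 and Psmb9 lie 457 bases apart on opposite strands, so both genes share the stretch that holds the Tap1 match. A match describes letters in this window and is neither a site shown to be bound nor a cause of the values below.

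The EG arrays were higher than the control arrays for nearly every MHC pathway gene in both zones, and this held for class II most evenly. Of the 15 members, 9 were at least 1 higher on the log2 scale in cortex (7.20% of all 23176 probe sets), 9 in outer medulla (6.0%) and 7 in both zones (3.04%). None of the 15 was at least 1 lower in cortex (7.91%), in outer medulla (6.12%) or in both (2.60%). The median difference of the MHC members was 1.57 in cortex and 1.07 in outer medulla, against 0.04 and 0.01 over all probe sets. Among the 20 interferon-induced members, 7 were at least 1 higher in cortex and 0 in outer medulla, where 2 were at least 1 lower. The median of those 20 was 0.63 in cortex and -0.38 in outer medulla.

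**Figure D1:**
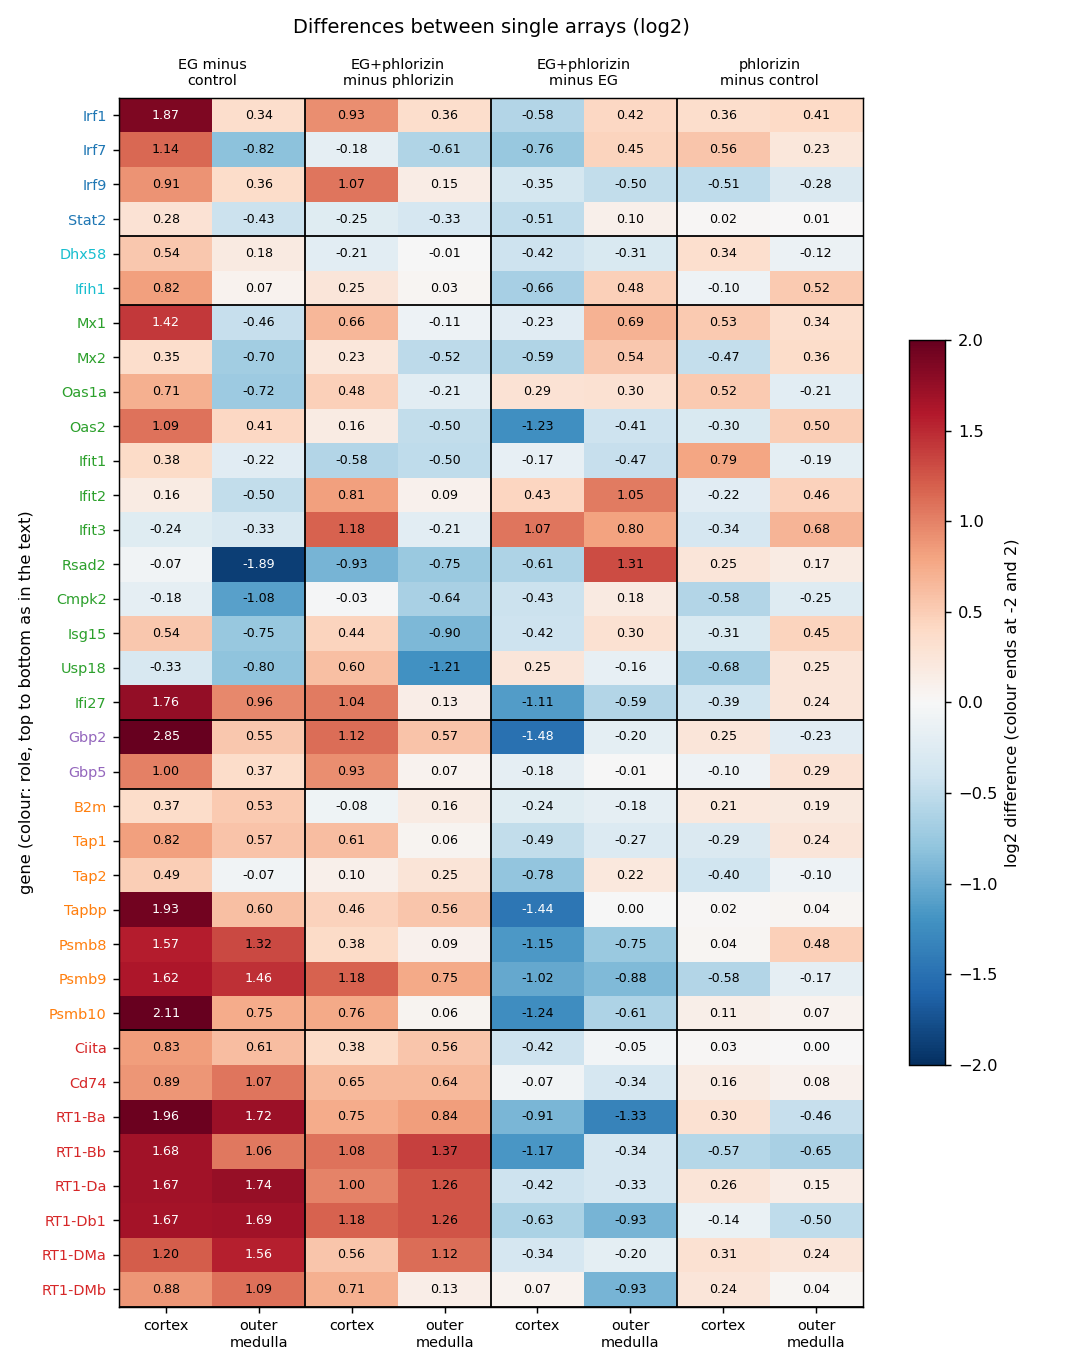
Differences between single arrays on the log2 scale for the 35 members (rows) in 4 comparisons, each in cortex and outer medulla (columns), with black lines between transcription factors, RNA sensors, antiviral effectors, guanylate binding proteins, class I and peptide supply, and class II from top to bottom. The class II rows are red in both zones under EG, from 0.61 to 1.96, while 10 of the 12 antiviral effectors are blue in outer medulla. Ifit1, 1 of these 10, was at or below background on every array.

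Class II molecules are pairs of an alpha and a beta chain, which in the rat are encoded by RT1-D and RT1-B genes. RT1-Da, the alpha chain of RT1-D, was 12.70 in cortex under control, 14.37 under EG, 12.96 under phlorizin and 13.95 under EG with phlorizin, and 12.48, 14.22, 12.63 and 13.89 in outer medulla in the same order. Both EG arrays of each zone lay above both arrays without EG, and the EG minus control difference was 1.67 in cortex (3.19-fold) and 1.74 in outer medulla (3.35-fold). RT1-Ba, the alpha chain of RT1-B, was 9.04, 11.00, 9.34 and 10.09 in cortex and 9.03, 10.75, 8.58 and 9.42 in outer medulla. It was again higher on each EG array than on either array without EG of that zone. RT1-Bb, the beta chain of RT1-B, was 8.73, 10.41, 8.16 and 9.24 in cortex and 8.11, 9.18, 7.47 and 8.83 in outer medulla, with the same order. RT1-Db1, the beta chain of RT1-D, read 6.60 and 6.26 on the EG arrays of cortex and outer medulla and was below background on the control and phlorizin arrays of both zones, so that its values of 4.94 and 4.57 under control are only bounds.

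The remaining class II members handle the peptide. RT1-DMa and RT1-DMb form the DM molecule, which exchanges the placeholder peptide for an antigen, and Cd74 is the invariant chain that guards the groove until then. RT1-DMa was 10.51, 11.71, 10.82 and 11.38 under control, EG, phlorizin and EG with phlorizin in cortex, and 9.68, 11.24, 9.92 and 11.03 in outer medulla. Cd74 was 16.55, 17.44, 16.71 and 17.37 in cortex and 16.22, 17.28, 16.29 and 16.94 in outer medulla. These values lie near the top of the range of the table, where differences can be compressed, and the EG differences were 0.89 and 1.07. RT1-DMb differed from control by 0.88 in cortex and 1.09 in outer medulla under EG. Ciita, the transactivator that switches class II genes on, was dim, at 6.24, 7.07, 6.27 and 6.65 in cortex and 5.83, 6.44, 5.83 and 6.39 in outer medulla, and it too was highest on the EG array of each zone.

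Class I peptide supply was higher under EG in the immunoproteasome and also in Tapbp, described below. In this proteasome form the inducible subunits Psmb8, Psmb9 and Psmb10 replace constitutive ones and favour peptides that fit class I. Psmb9 was 8.58, 10.21, 8.0 and 9.18 in cortex under control, EG, phlorizin and EG with phlorizin, and 8.70, 10.16, 8.53 and 9.28 in outer medulla. Each EG array was above both arrays without EG of its zone, with EG minus control differences of 1.62 and 1.46. Psmb8 was 7.20, 8.77, 7.24 and 7.63 in cortex and 7.22, 8.54, 7.70 and 7.79 in outer medulla. Psmb10 was 6.81, 8.92, 6.92 and 7.68 in cortex and 7.84, 8.58, 7.91 and 7.97 in outer medulla, so that the EG array was the highest of each zone, with a difference of 2.11 in cortex and 0.75 in outer medulla. The constitutive proteasome did not share this pattern in its counts. Of 14 constitutive subunits, 0 were at least 1 apart from control in either zone. Of all probe sets, 7.20% were higher and 7.91% lower in cortex, and 6.0% and 6.12% in outer medulla. The median difference of the constitutive subunits was -0.08 in cortex and 0.14 in outer medulla. The interferon-inducible activator subunits Psme1 and Psme2 differed by 0.91 and 1.24 in cortex and by -0.10 and 0.62 in outer medulla.

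**Figure D2:**
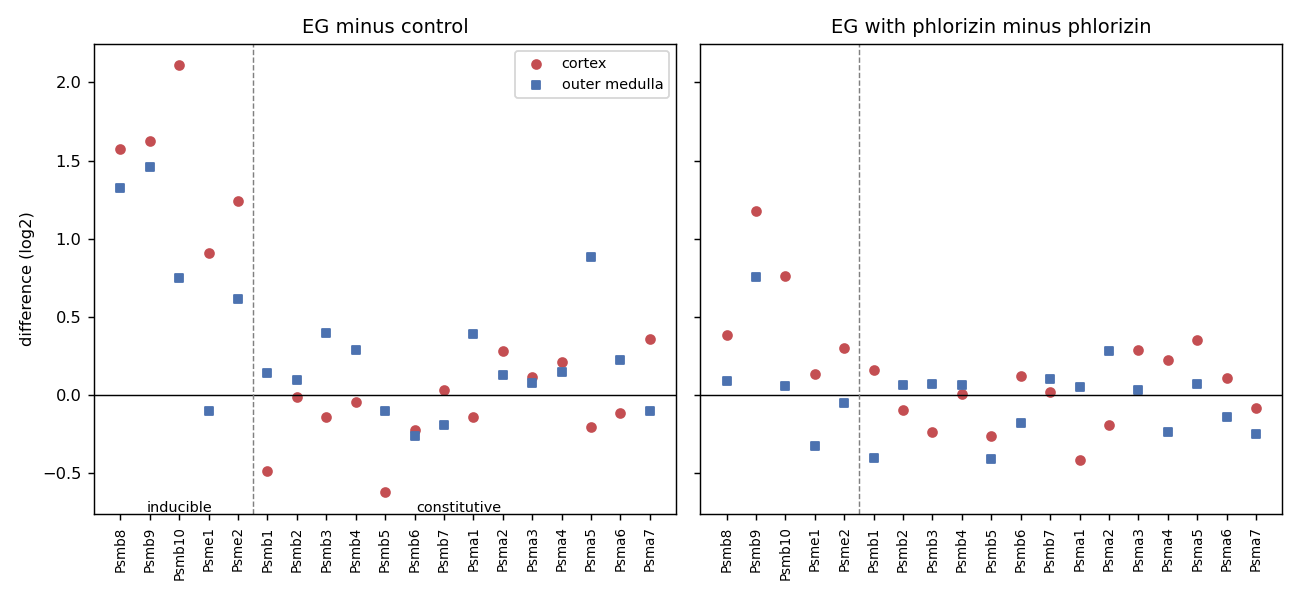
Log2 difference with minus without EG in cortex (circles) and outer medulla (squares) for inducible proteasome subunits and activators (left of the dashed line) and 14 constitutive subunits (right of it), without phlorizin in the left panel and with it in the right. Psmb8, Psmb9 and Psmb10 lie from 0.75 to 2.11 in the left panel, and all constitutive subunits lie under 1.

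Tap1 and Tap2 form the pump that carries peptides into the endoplasmic reticulum, Tapbp (tapasin) loads them there, and B2m is the light chain of every class I molecule. Tapbp was 10.41, 12.34, 10.43 and 10.89 in cortex under control, EG, phlorizin and EG with phlorizin, and 11.08, 11.68, 11.12 and 11.68 in outer medulla. The cortex EG array was the highest of the 8, with a difference of 1.93 against 0.60 in outer medulla. Tap1 was 8.31, 9.12, 8.01 and 8.63 in cortex and 8.45, 9.02, 8.69 and 8.75 in outer medulla, a smaller difference of 0.82 and 0.57. Tap2 did not move with it, at 0.49 in cortex and -0.07 in outer medulla. B2m, one of the brightest members, differed by 0.37 and 0.53.

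**Figure D3:**
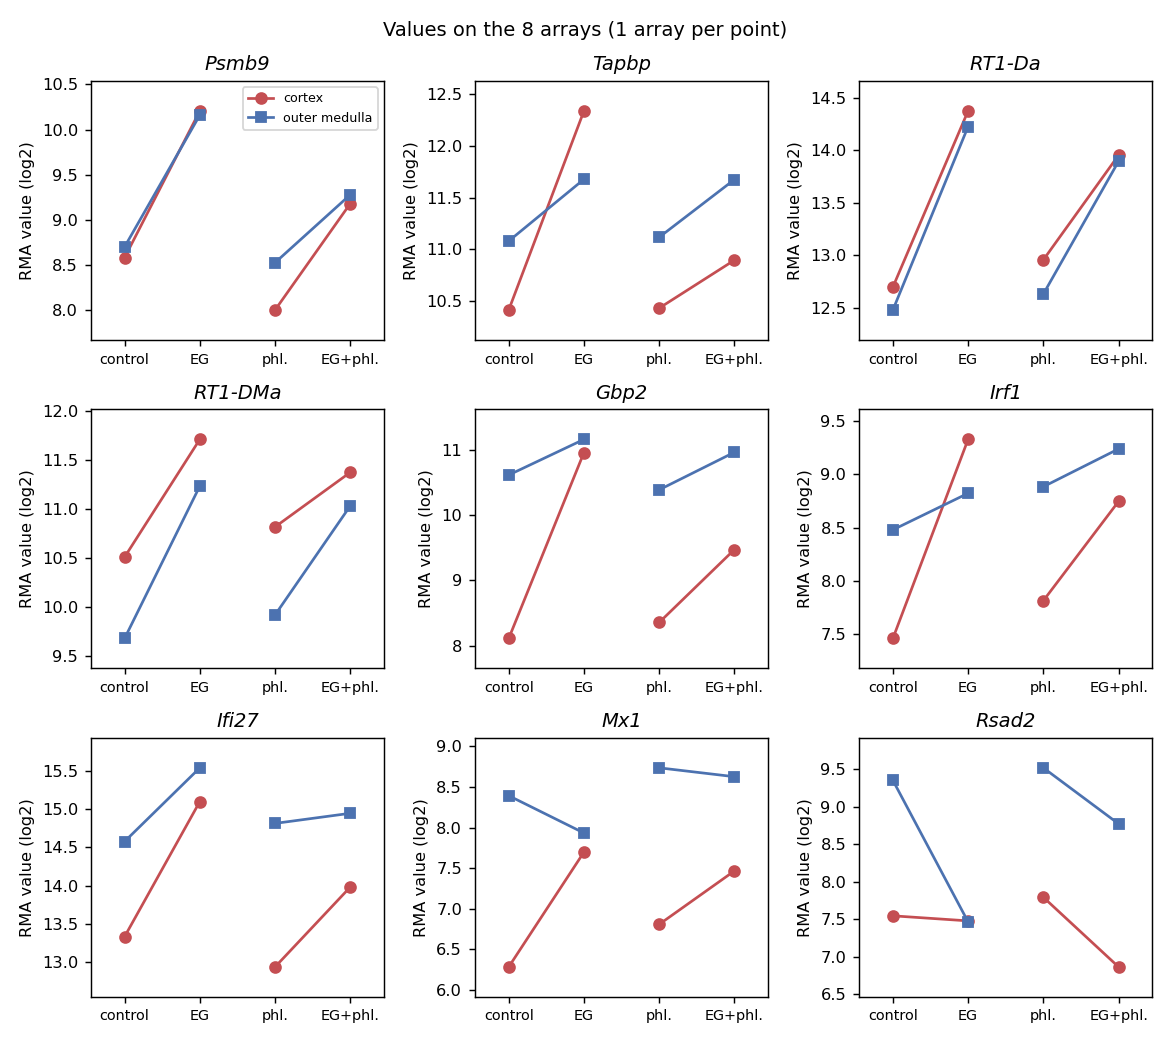
RMA values on the log2 scale (vertical axes, 1 scale per gene) of 9 members on the 8 arrays, with lines joining the arrays without and with EG in cortex (circles) and outer medulla (squares). Psmb9, RT1-Da and RT1-DMa are higher with EG in every pair, whereas Mx1 is higher with EG in cortex and lower in outer medulla.

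Of the 4 interferon-induced transcription factors, Irf1 and Irf9 were higher with EG in both zones and both phlorizin arms, and Irf7 and Stat2 were not. Irf1, an early target of interferon gamma that itself acts on MHC genes, was 7.46, 9.33, 7.81 and 8.75 in cortex under control, EG, phlorizin and EG with phlorizin, and 8.48, 8.82, 8.88 and 9.24 in outer medulla. Its EG minus control difference was 1.87 in cortex (3.66-fold) and 0.34 in outer medulla (1.27-fold). Irf9, the DNA-binding part of the complex that type I interferon assembles, was 8.71, 9.61, 8.2 and 9.27 in cortex and 10.31, 10.67, 10.03 and 10.18 in outer medulla. Stat2, its partner, differed from control by 0.28 and -0.43 under EG. Irf7, which amplifies type I interferon production, was 6.42, 7.56, 6.98 and 6.80 in cortex and 8.95, 8.13, 9.18 and 8.57 in outer medulla, so that the EG array was the highest of its zone in cortex and the lowest in outer medulla. The RNA sensors Ifih1 (MDA5) and Dhx58 (LGP2) differed by 0.82 and 0.54 in cortex and by 0.07 and 0.18 in outer medulla.

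The antiviral effectors were lower under EG than under control in outer medulla for 10 of 12 members, with a median of -0.60. In cortex 8 of 12 were higher, with a median of 0.36. Both counts include Ifit1, at or below background on all 8 arrays, and the cortex count includes Isg15, whose sign there cannot be read. Over the 9 effectors bright enough to be tested, the medians were -0.70 in outer medulla and 0.16 in cortex. Over all probe sets, 52.9% were above control in cortex and 50.4% in outer medulla. Rsad2 (viperin), which makes a chain-terminating nucleotide, was 9.35 in outer medulla under control, 7.47 under EG, 9.52 under phlorizin and 8.77 under EG with phlorizin, and 7.55, 7.48, 7.79 and 6.86 in cortex. The outer medulla EG array was thus the low one of its zone, and it was close to cortex values. Cmpk2, a mitochondrial nucleotide kinase that is the neighbour of Rsad2 in the genome, was 9.52, 8.44, 9.27 and 8.63 in outer medulla and 8.37, 8.19, 7.79 and 7.76 in cortex. Rsad2 and Cmpk2 were the 2 members with a lower value with than without EG in both zones and both phlorizin arms (15.5% of all probe sets). Usp18, which removes Isg15 from proteins and dampens interferon signalling, was 9.78, 8.97, 10.02 and 8.81 in outer medulla, lower with EG in each pair, and 8.13, 7.80, 7.45 and 8.05 in cortex.

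Mx1, a GTPase that traps viral particles, was 6.28, 7.70, 6.81 and 7.47 in cortex under control, EG, phlorizin and EG with phlorizin, and 8.39, 7.93, 8.74 and 8.63 in outer medulla. With and without phlorizin, the array with EG was the higher of its pair in cortex and the lower in outer medulla. In outer medulla the difference with phlorizin was only -0.11, and the array with both agents lay above control. Mx2, Oas1a and Isg15 had the same order of signs, and no other member did. Isg15 was at or below background on 3 of the 4 cortex arrays and read 5.57 against a background of 5.53 on the fourth, so that its sign in cortex cannot be read. Oas1a, which makes the second messenger that activates RNase L, was 6.32, 7.02, 6.83 and 7.31 in cortex and 9.10, 8.38, 8.89 and 8.68 in outer medulla. Over all probe sets, 5.07% were higher with EG in cortex and lower with EG in outer medulla in both phlorizin arms, against 4 of 20 interferon-induced members, Isg15 included. The Ifit genes, whose products bind foreign RNA ends, differed little under EG without phlorizin. Ifit2 was 0.16 higher in cortex and 0.50 lower on the log2 scale in outer medulla, while Ifit3 differed by -0.24 and -0.33.

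Oas2, a further enzyme of the Oas family, was above control under EG by 1.09 in cortex and 0.41 in outer medulla, but in outer medulla it was 0.50 lower on the log2 scale with than without EG in the phlorizin arm. The 1 effector that was higher with EG in every pair was Ifi27, a mitochondrial and nuclear envelope protein that is among the most strongly induced interferon targets. It was 13.34, 15.10, 12.94 and 13.98 in cortex under control, EG, phlorizin and EG with phlorizin, and 14.58, 15.54, 14.81 and 14.95 in outer medulla. The guanylate binding proteins, GTPases that attack vacuoles of intracellular microbes and that respond strongly to interferon gamma, were also higher with EG in every pair. Gbp2 was 8.11, 10.95, 8.35 and 9.47 in cortex and 10.61, 11.16, 10.38 and 10.96 in outer medulla. Its cortex difference under EG, 2.85 (7.20-fold), was the largest of all 35 members, against 0.55 (1.46-fold) in outer medulla. Gbp5 was 5.75, 6.76, 5.65 and 6.58 in cortex and 8.26, 8.63, 8.55 and 8.62 in outer medulla.

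The EG effect was tested on 4 profiles, each the mean of cortex and outer medulla array of a treatment, with phlorizin as a second term. The fit had 1 residual degree of freedom, which is the interaction of EG with phlorizin. At an adjusted p under 0.05 in limma 3.58.1, 5 of 13163 tested probe sets rose (0.0380%) and 0 fell, and 0 members were among them. The filter on dim genes left 12 MHC and 17 interferon-induced members in this fit. At an unadjusted p under 0.05 in limma, 10 of 12 MHC members were higher and 0 lower, and 5 of 17 interferon-induced members were higher and 1, Rsad2, lower, against 9.85% higher and 12.9% lower of all tested probe sets. The smallest adjusted p-values of limma in the MHC group were 0.0771 for RT1-Bb (difference 1.30, SE 0.21), 0.0809 for RT1-Da (1.42, SE 0.24) and 0.0838 for Psmb9 (1.25, SE 0.24). In the interferon-induced group they were 0.0900 for Gbp2 (1.27, SE 0.27) and 0.0960 for Rsad2 (-0.91, SE 0.21). Adjusted p-values of limma ran up to 0.559 over the 12 MHC members and up to 0.889 over the 17 interferon-induced members. Calls depended on the filter. Without it, limma called 1.73% of 23176 probe sets higher and 0.997% lower, and 6 of 15 MHC members rose, namely RT1-Ba, RT1-Bb, RT1-Da, RT1-Db1, RT1-DMa and Psmb9, while Gbp2 was the 1 of 20 interferon-induced members that rose. Their adjusted p-values in limma lay between 0.028 for RT1-Db1, which was at or below background on 5 of 8 arrays, and 0.050 for RT1-Ba.

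In the phlorizin arm, where EG with phlorizin was set against phlorizin, the class II genes were again the most evenly higher. Of the 15 MHC members, 3 were at least 1 higher in cortex (1.69% of all), 4 in outer medulla (2.67%) and 2, RT1-Bb and RT1-Db1, in both zones (0.574%). RT1-Db1 was below background on both outer medulla arrays of this comparison (4.07 and 5.33), so that its difference there has no reading and RT1-Bb is the 1 gene measured above background in both zones. The medians were 0.65 and 0.56, against -0.04 and -0.01 over all probe sets. The other 3 in outer medulla were class II genes too, RT1-Bb at 1.37, RT1-Da at 1.26 and RT1-DMa at 1.12. The 7 class I members had a median of 0.46 in cortex and 0.16 in outer medulla, where Psmb9 was the highest at 0.75. Among the interferon-induced members, 4 were at least 1 higher in cortex, namely Gbp2, Ifit3, Irf9 and Ifi27, and 0 in outer medulla, where Usp18 differed by -1.21 (2.17% of all at least 1 lower). None was at least 1 lower in cortex (1.39%) or in both zones (0.198%). Ifit3 read 6.72 under phlorizin and 7.89 under EG with phlorizin in cortex, so that its highest cortex value was on the array with both agents.

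Taking both arms, which use separate arrays, 13 of 15 MHC members had a higher value with than without EG in both zones and both arms (14.2% of all probe sets), including 8 of 8 class II members (for RT1-Db1, 1 of these pairs lay below background). The 2 others were B2m and Tap2. The same held for 6 of 20 interferon-induced members, namely Irf1, Irf9, Ifih1, Ifi27, Gbp2 and Gbp5. Counted with its sign, the EG difference was lower with phlorizin than without it in both zones for 13 of 15 MHC members. The same held for 7 of 20 interferon-induced members and for 7218 of all 23176 probe sets, whether or not they were higher with EG. A fall that deepened is counted too, as for Isg15 in outer medulla, at -0.75 without and -0.90 with phlorizin. The MHC exceptions were Tap2 and RT1-Bb, in outer medulla.

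**Figure D4:**
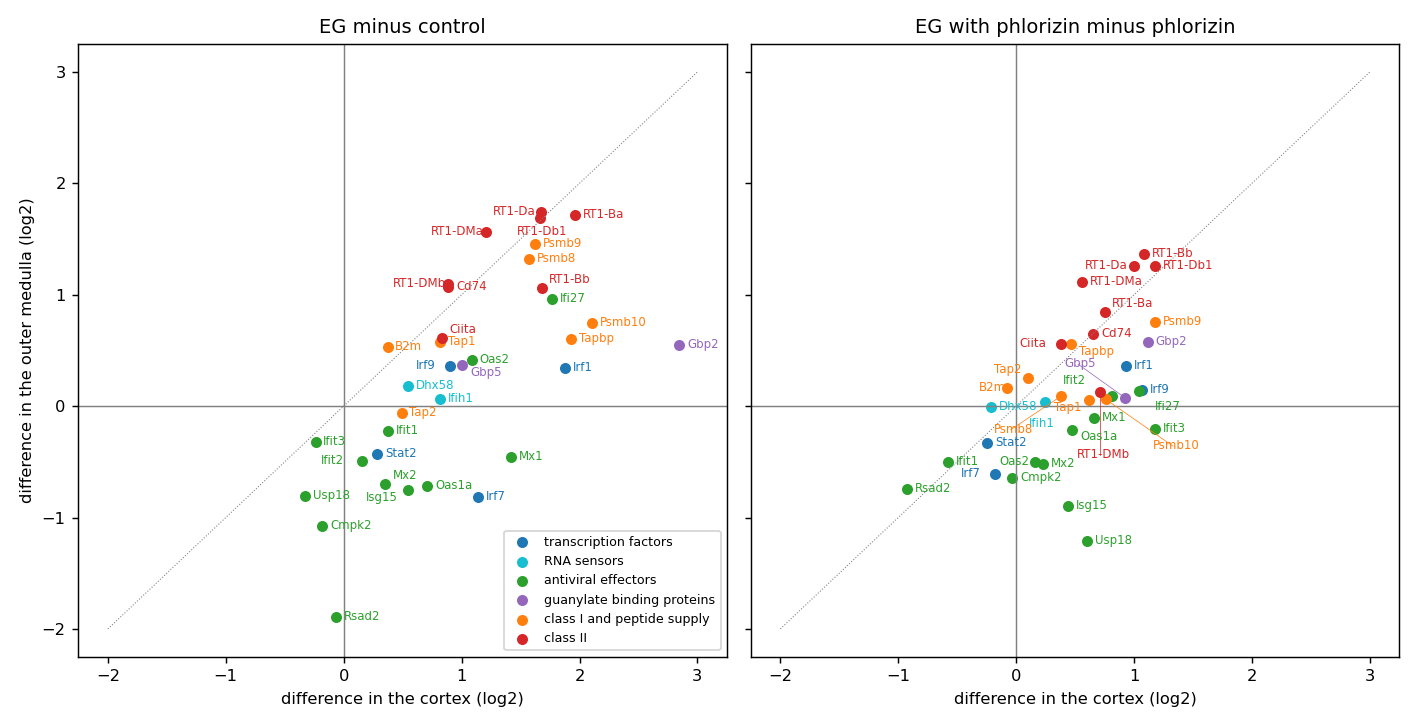
Log2 difference with minus without EG in cortex (horizontal axis) and outer medulla (vertical axis) for the 35 members, without phlorizin in the left panel and with it in the right. The dotted line marks equal differences, class II genes lie along it, and the interferon-induced members lie below it in the left panel.

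Setting EG with phlorizin directly against EG, the MHC values were lower with phlorizin, more so in cortex. Of 15 members, 5 were at least 1 lower in cortex (4.57% of all), namely Tapbp, Psmb10, RT1-Bb, Psmb8 and Psmb9, 1 in outer medulla (3.09%), RT1-Ba at -1.33, and 0 in both zones (1.04%). The medians were -0.63 and -0.34, and all probe sets had medians of -0.09 and 0.00. Class I members had a median of -1.02 in cortex and -0.27 in outer medulla, and class II members -0.42 and -0.34. Among the interferon-induced members, 3 were at least 1 lower in cortex, namely Gbp2 at -1.48, Oas2 at -1.23 and Ifi27 at -1.11, and Ifit3 was 1.07 higher (4.38% of all at least 1 higher). None was at least 1 higher in both zones (0.664%). In outer medulla 0 were at least 1 lower and 2 were higher, Rsad2 by 1.31 and Ifit2 by 1.05 (2.38% of all). This comparison uses the same EG arrays as EG against control, so both share the deviations of those arrays.

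With phlorizin and no EG, members lay close to control, as did nearly all probe sets. In neither zone was any of the 35 members at least 1 apart, where 0.915% of all probe sets were higher and 0.742% lower in cortex, and 0.734% higher and 0.319% lower in outer medulla. In both zones together the shares were 0.0259% and 0.0129%. The MHC medians were 0.04 and 0.04, and the interferon-induced medians -0.10 in cortex and 0.24 in outer medulla. The largest differences were 0.79 for Ifit1 in cortex, at background, -0.68 for Usp18 in cortex, 0.68 for Ifit3 in outer medulla and -0.65 for RT1-Bb there. In the fit over 4 profiles, limma called 0 of 13163 probe sets for phlorizin, with 202 higher and 266 lower at an unadjusted p under 0.05, of which 2 were MHC members, both lower, and 0 interferon-induced.

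Most interferon-induced genes were higher in outer medulla than in cortex. In a fit of all 8 arrays that took out treatment differences, 15 of 17 interferon-induced members rose from cortex to outer medulla (limma, adjusted p under 0.05), where 32.7% of all tested probe sets rose and 18.8% fell. The 2 that did not pass were Irf1 (0.52, SE 0.28, adjusted p 0.158 in limma) and Ifih1 (0.67, SE 0.24, adjusted p 0.0532 in limma). The largest differences were 2.33 (SE 0.20) for Gbp5, 1.92 (SE 0.22) for Ifit2, 1.91 (SE 0.29) for Mx2 and 1.89 (SE 0.26) for Oas1a, with adjusted p-values in limma of at most 0.00213. Over the 13163 tested probe sets the median zone difference was 0.18. Some of these calls did not hold when both arrays of a treatment were left out. Mx1, Rsad2 and Cmpk2 had adjusted p-values in limma of 0.0511, 0.0655 and 0.0537 without control and 0.0503, 0.0594 and 0.0506 without phlorizin, and Rsad2 and Gbp2 had 0.0746 and 0.0508 without EG with phlorizin. Of 20 members, 16 were higher in outer medulla under all 4 treatments, as were 6436 of all 23176 probe sets. The 16 include Ifit1, which was at or below background on all 8 arrays. MHC genes did not share this order. Among 12 tested, 3 class II members fell in outer medulla, RT1-DMb by 0.82 (SE 0.19), RT1-Bb by 0.74 (SE 0.17) and RT1-DMa by 0.64 (SE 0.16), with adjusted p-values in limma of 0.0124, 0.0126 and 0.0146, and 0 rose. RT1-DMa had an adjusted p of 0.0668 in limma without control and of 0.0745 without phlorizin. Without the EG arrays, Tapbp (0.71) and Psmb10 (0.77) passed as higher in outer medulla, and Irf1 (0.86) and Ifih1 (0.94) did too. All 8 class II members were lower in outer medulla under all 4 treatments, as were 4782 of 23176 probe sets, although for RT1-Db1 5 of the 8 values lay at or below background, whereas class I members lay on both sides of 0.

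For the interferon-induced members, the median gap between zones was narrower on the EG arrays. The median outer medulla minus cortex difference of the 20 interferon-induced members was 1.62 under control and 1.90 under phlorizin, against 0.52 under EG and 0.98 under EG with phlorizin. That of the 15 MHC members was -0.10, -0.32, -0.33 and -0.06 in the same order. Whether the EG effect differed between zones was tested on the 4 zone differences, and limma called 0 of 13163 probe sets, with 5.90% lower and 6.47% higher in outer medulla at an unadjusted p under 0.05. At that unadjusted threshold 12 of 17 interferon-induced members were lower and 0 higher, and 1 of 12 MHC members, Psmb10, was lower. The differences were -1.42 for Gbp2 (95% interval -2.64 to -0.20, adjusted p 0.365 in limma), -1.32 for Mx1 (-2.26 to -0.39, adjusted p 0.321 in limma) and -1.05 for Irf1 (-1.93 to -0.18, adjusted p 0.356 in limma). Without the filter, the fitted difference was below 0 for 20 of 20 interferon-induced members and for 10 of 15 MHC members, against 49.4% of all probe sets. The 20 include Ifit1, at or below background on every array, and Isg15, at or below it on most cortex arrays. Without the filter limma called 4 probe sets (0.0173%), none of them a member. For RT1-Da the fitted difference with the filter was 0.17, with a 95% interval from -0.52 to 0.86. No member passed the adjusted threshold, so a zone difference in the EG effect was not shown for any single gene. The cortex EG array, whose spike-in controls were low, enters each of these values, and its part in them was not tested. In the phlorizin arm, which does not use that array, the interferon-induced medians were 0.46 in cortex and -0.21 in outer medulla.

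**Figure D5:**
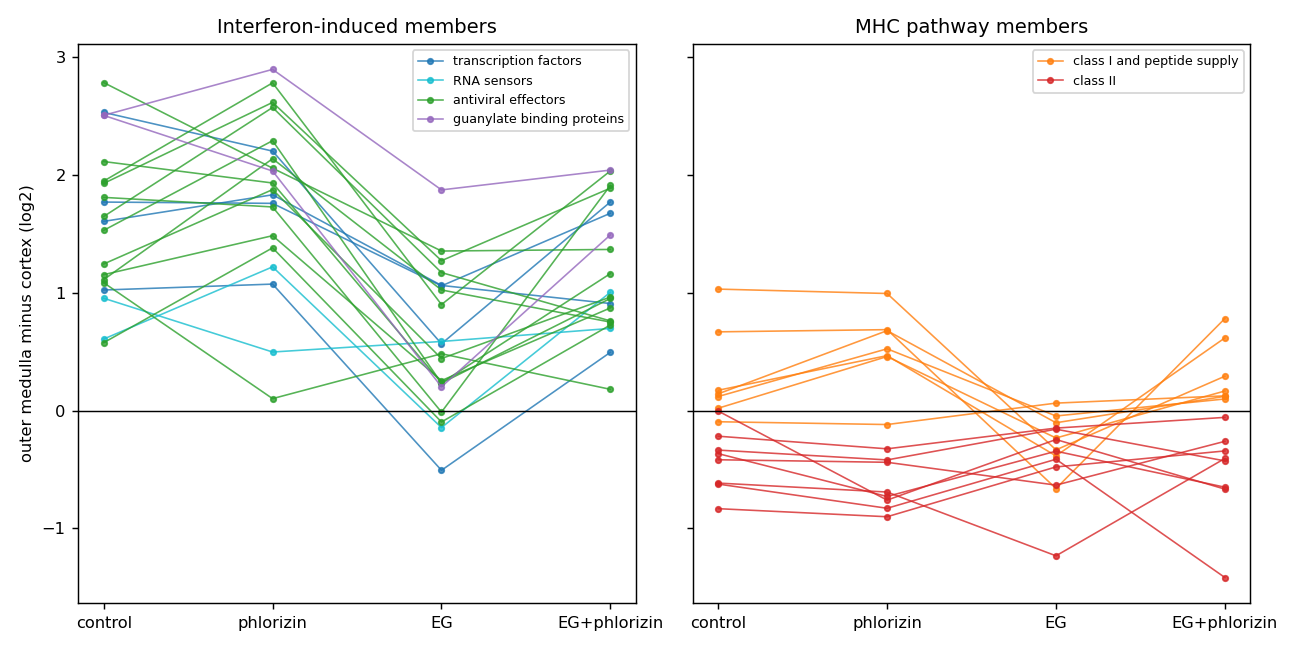
Outer medulla minus cortex difference on the log2 scale (vertical axis) under each of the 4 treatments (horizontal axis), 1 line per member, for 20 interferon-induced members (left) and 15 MHC pathway members (right). The interferon-induced lines are lower on the EG arrays, with medians of 0.52 and 0.98 against 1.62 and 1.90 without EG, and the class II lines stay at or below 0.

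The mean RNA level of macrophage and dendritic cell markers moved with the class II mean across treatments, but not between zones. Of 10 macrophage and dendritic cell markers measured, 7 were at least 1 higher under EG in cortex (7.20% of all probe sets). In outer medulla 7 were (6.0%), and 6 in both zones (3.04%). Their mean level was 7.13 in cortex and 7.71 in outer medulla under control, 9.08 and 9.38 under EG, 7.0 and 7.67 under phlorizin, and 7.91 and 8.63 under EG with phlorizin. The mean level of the 8 class II members was 9.96 and 9.53 under control, 11.31 and 10.85 under EG, 10.03 and 9.39 under phlorizin, and 10.82 and 10.29 under EG with phlorizin. Both were thus highest under EG and intermediate under EG with phlorizin in each zone. Between zones they went opposite ways. Under each treatment the marker mean was higher in outer medulla than in cortex, and the class II mean was lower. The single markers were split, with 5 of 10 higher in outer medulla under all 4 treatments and 2 lower. Without the filter, limma called 5 higher there (19.2% of all probe sets) and 1, Xcr1, lower (12.2%). For EG without the filter, limma called 5 of the 10 higher, Xcr1 among them, and 0 lower (1.73% and 0.997% of all). Mrc1, a macrophage mannose receptor, was 7.53 on the cortex control array and 12.64 on the cortex EG array, and Cd68, a lysosomal macrophage protein, was 8.34 and 11.41. Ptprc, the CD45 antigen of all leukocytes, was 10.22 and 11.68. Zbtb46, a dendritic cell transcription factor, was instead lower with EG in both zones and both phlorizin arms, at -0.36 in cortex and -1.0 in outer medulla without phlorizin. The part of these cells in the MHC values was not tested. Of 10 T and NK cell markers, 8 were too dim to be tested, and Cd3g, Gzmb and Prf1 were at or below background on all 8 arrays. Cd4, which rat macrophages also carry, differed by 2.53 in cortex and 2.01 in outer medulla. The other tested marker, Cd8b, went the other way, with an EG minus control difference of -0.54 as the mean of both zones. The only B cell marker measured, Cd79b, was at or below background on all 8 arrays. The mean level of 6 endothelial markers was lower under EG, at 10.78 against 11.39 in cortex and 11.76 against 12.51 in outer medulla.

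The genes that carry the interferon signal were described from further lists of the same pathways. Among 19 interferons, receptors and JAK-STAT genes measured, 5 were at least 1 higher under EG in cortex, 3 in outer medulla and 2 in both. None was at least 1 lower. The shares over all probe sets were 7.20%, 6.0% and 3.04% higher, and 7.91%, 6.12% and 2.60% lower. Ifngr1, a chain of the interferon gamma receptor, was 13.48 on the cortex control array and 14.93 on the cortex EG array, and 14.41 and 14.99 in outer medulla. Ifngr2, the other chain, was 10.36 and 11.48 in cortex and 9.95 and 11.08 in outer medulla. Socs3, an inhibitor of cytokine signalling that mainly follows interleukin-6 type cytokines, was 6.5 and 9.82 in cortex and 6.67 and 11.42 in outer medulla. The interferons themselves were dim, with Ifnb1 between 5.08 and 5.53 and Ifng between 4.06 and 5.41 over the 8 arrays, all at or below the background of 5.53 to 5.68, so their levels cannot be compared. Among 12 genes of nucleic acid sensing, 3 were at least 1 higher in cortex, 2 in outer medulla and 2 in both. One further gene was lower in both, and the shares over all probe sets are those just given. Sting1, which relays the sensing of DNA, was 6.12 and 7.70 in cortex and 7.76 and 8.97 in outer medulla. Mavs, which relays the sensing of RNA from the mitochondrial surface, was 11.46 and 10.20 in cortex and 13.24 and 10.78 in outer medulla, the 1 gene of this list that was at least 1 lower.

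Other interferon-induced genes outside the 35 members were higher in larger numbers. Of 33 measured, 16 were at least 1 higher under EG in cortex, 8 in outer medulla and 7 in both. The shares over all probe sets were 7.20%, 6.0% and 3.04%. None of the 33 was at least 1 lower, against 7.91%, 6.12% and 2.60% of all. The median of the list was 0.99 in cortex and 0.33 in outer medulla. Lgals3bp, a secreted galectin-binding glycoprotein, was 12.03 and 15.64 in cortex and 14.15 and 16.26 in outer medulla under control and EG. Ifitm1, a membrane protein that blocks viral entry, was 11.22 and 13.82 in cortex and 13.96 and 15.47 in outer medulla. Ifi47, a GTPase that responds to interferon gamma, was 8.81 and 10.66 in cortex and 9.56 and 11.02 in outer medulla. Of 36 other antigen presentation genes, 8 were at least 1 higher in cortex (7.20% of all), 6 in outer medulla (6.0%) and 2 in both (3.04%). Ctss, the cathepsin that trims the invariant chain, was 10.40 and 12.62 in cortex and 11.95 and 13.23 in outer medulla, and Cd80, a co-stimulatory ligand of T cells, was 6.15 and 8.04 in cortex and 6.75 and 7.73 in outer medulla. With 1 array for each zone and treatment these list counts have no replicate check. With the filter, none of these lists had a member past an adjusted p of 0.05 for EG in limma. At an unadjusted p under 0.05 in limma, 14 of 25 tested other interferon-induced genes were higher (9.85% of all tested probe sets). Without the filter, limma called 5 of 33 other interferon-induced genes higher (1.73% of all probe sets), Ifitm1, Ifi47 and Lgals3bp among them. Socs3, Sting1 and Ctss were likewise called higher, while Mavs fell (0.997% of all).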

How the data were processed

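RNA of renal cortex and outer medulla was measured on 8 Clariom S rat arrays, 1 for each zone and treatment. The authors deposited log2 values; RMA is the method named per the submitters' processing notes. Its software version was not given in the sources used here. That the log base is 2 was taken from the span of the values, 2.28 to 19.7. No further normalization was applied. Of 24834 probe sets, 1646 that were no transcript clusters were left out. Symbols came from the platform annotation given with the series, which named 1 gene for 15049 probe sets and none for 8139. For 10 symbols with several probe sets, none of them a member, the one with the highest mean was kept, which left 23176. Tests used the 13163 probe sets whose highest value reached the median of all values (7.54), and counts of members by size used all 23176.

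Fits were made with limma 3.58.1 in R 4.3.3, 2-sided, with Benjamini-Hochberg adjustment over all tested probe sets, and calls were made at an adjusted p under 0.05. The effects of EG and of phlorizin came from a fit on 4 profiles (means of both zones of a treatment), the zone effect from 8 arrays with treatment as a block, and the EG effect by zone from 4 zone differences. The number of arrays limits the precision. Scripts were tested on simulated data. Alternatives covered normalization, filter, probe set choice, variance prior, unit of the fit, size threshold and treatments left out. Promoter motifs were searched in the 250 bases before each start. Python 3.11.15 with pandas 2.3.3 and matplotlib 3.10.9 was used for these and for the figures.

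The members and lists were chosen with earlier results of these data known. The rule for named genes took every listed member measured, from each other list up to 4 tested genes with the largest absolute mean difference of EG from control, Havcr1 and Spp1 as checks of the model, and the zone markers as checks of the zones. Ptprc, Xcr1, Zbtb46, Psme1, Psme2, Ifnb1, Ifng, Cd79b, Cd3g, Gzmb and Prf1 fall outside that rule and were named after their values were seen.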

Additional observations from a re-analysis of the deposited data

Results flagged for a closer look

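For 4 antiviral effectors, every measured EG difference was above 0 in cortex and below 0 in outer medulla, with and without phlorizin. Averaged over both arms, the EG difference in outer medulla minus that in cortex was -1.32 for Isg15, -1.32 for Mx1, -0.90 for Mx2 and -1.06 for Oas1a. In the limma fit over 4 zone differences the adjusted p was 0.321 for Mx1, 0.347 for Mx2 and 0.341 for Oas1a, so that none passed 0.05. Isg15 was too dim for that fit, and without the filter its adjusted p in limma was 0.265. It was at or below background on 3 of 4 cortex arrays, so that neither its sign in cortex nor the size of its value can be read. Over all 23176 probe sets, 5.07% had the same order of signs.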

How the results depend on the processing

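The EG calls depended on the processing. Against 5 probe sets called for EG, limma called 0 after quantile normalization, 886 with arrays centred on the median, 631 without the filter, 3 with a trend and robust prior, 1692 on 8 arrays with the treatment as a random block and 355 on outer medulla arrays only. Against 0 members called, MHC members numbered 5, 6, 6 and 1 with centring, no filter, the random block and outer medulla alone, and interferon-induced members 2, 1 and 2 in the first 3 of these. The EG effect by zone, with 0 calls, had 9 after quantile normalization, 4 without the filter, 2 with a filter on the mean and 112 with the trend and robust prior, and 0 members among them. Leaving out both arrays of a treatment gave 12 to 17 interferon-induced and 2 to 5 MHC members called between zones, the 5 without EG. Under the other alternatives these were 14 to 16 and 3 to 4.

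Over filtered probe sets, 645 (4.90%) were at least 1 higher in both zones for EG against control, 131 (0.995%) for EG with phlorizin against phlorizin and 4 (0.0304%) for phlorizin against control, and 225 (1.71%) were at least 1 lower for EG with phlorizin against EG. At 0.5 these became 1485, 512, 90 and 873, and at 1.5 they became 330, 35, 0 and 64. At 0.5, and with dim members included, MHC members higher in both zones numbered 13 for EG and 7 in the phlorizin arm, and 5 were lower for EG with phlorizin against EG, while interferon-induced members numbered 2, 1 and 1. At 1.5, MHC members numbered 3 and 0. After quantile normalization 1 interferon-induced member was at least 1 higher in both zones for EG. With the filter on the mean, 1 MHC member was at least 1 higher in both zones in the phlorizin arm, and 2 probe sets were at least 1 higher for phlorizin.

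Some signs reversed. On outer medulla arrays only, the EG difference was -0.28 for Mx1, -0.47 for Oas1a, -0.20 for Ifit2 and -0.27 for Ifit3, and on cortex arrays only it was 0.48 for Irf7, 0.29 for Mx2, 0.019 for Stat2 and 0.14 for Usp18. Both settings were chosen after seeing the data. The zone difference became 0.17 for B2m and -0.0051 for Psmb8 after quantile normalization, and with a treatment left out it ran from -0.050 to 0.031 for B2m and from -0.016 to 0.21 for Psmb8. The causes were not tested. Replicates could not be paired, since the labels give no replicate numbers and each group has 1 array. Background limits Ifit1, Isg15, Oas2 and RT1-Db1.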
